A study of Mus musculus with 9 samples.

Results

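The comparison described here set the testes of 3 Pfn3–/– (KO) mice against those of 6 mice that kept at least 1 intact Pfn3 allele, namely 3 Pfn3+/+ (WT) and 3 Pfn3+/– (Het) mice. It used all 9 animals of the series and asked which transcripts differed only when both alleles were lost. All animals were C57BL/6 males, and the strain background was therefore shared. The Pfn3 alleles had been made by CRISPR/Cas9 editing in several lines, and the labels do not state which of them the sequenced animals carried or how old they were. RNA came from whole testis after the tunica albuginea had been removed, so each value averages over germ cells and somatic cells. Of the 38674 genes in the deposited table, 14865 reached a normalized count of 10 in 3 or more animals and were tested. A normalized count is the number of reads counted on a gene, divided by 1 scaling factor per animal.

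Profilins are small proteins that bind actin monomers and steer their addition to growing filaments. Profilin 3, the product of Pfn3, is one of the testis-specific members of the family and is made in spermatids, the haploid cells in which the acrosome, the manchette and the sperm tail are built. A recessive allele is one whose effect is seen when no intact copy remains, and for such an allele Het animals resemble WT animals. Expression of a transcript that follows this pattern is alike in WT and Het testes and different in KO testes.

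The depth of the libraries was 3375546 to 4287335 reads counted on genes. Between 12773 and 14132 genes reached a normalized count of 10. The limit of detection was put at 3 reads per library, or 2.58 to 3.71 normalized counts, and covers counting error only. WT animal 1 and Het animal 1 stood apart from the other animals. Their median Spearman correlation with the others across genes was 0.803 and 0.843, compared with 0.867 to 0.906 for the other 7 animals, and both belong to the pooled group of 6. Of the genes tested, 2799 (18.8%) spanned more than 8-fold between the lowest and highest of the 6 WT and Het animals, and the lowest was 1 of these 2 in 2144 of them. Nothing in the labels says that the animals came from separate litters or were processed on separate days, so the p-values measure the spread between these 9 samples.

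Pfn3 itself (ENSMUSG00000044444, GRCm38 chr13:55414688-55415232, minus strand) was checked first. Its normalized counts in WT were 592, 383 and 373, those in Het were 136, 339 and 326, and those in KO were 74.7, 215 and 279. The KO animals were lowest on average, yet KO animals 2 and 3 lay above Het animal 1. On the scale of log2(normalized count + 1), the KO animals were 0.99 lower than the 6 others (log2 difference −0.99), and a two-sided exact permutation test over the 84 ways to choose 3 animals of 9 gave p = 0.167. The smallest p this design allows is 0.0238. Without Het animal 1 the difference was −1.25, with an exact permutation p of 0.0357, the smallest that 8 animals allow. When any other single animal was left out, the exact permutation p ran from 0.143 (without KO animal 2 or 3) to 0.5 (without KO animal 1). QuantSeq reads lie near the 3′ end of a transcript, and an edited allele that is still transcribed past its deletion can still give reads there. The Pfn3 count thus separates the genotypes only in part and checks the labels only in part.

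KO testes differed from the pooled WT and Het testes in 3 genes, and all 3 were lower. Called genes were those with a Benjamini-Hochberg adjusted p under 0.05 by limma whose fold change, up or down, exceeded 1.5 on the log2 scale. These 3 of 14865 genes make 0.0202% of the genes tested, the share lower in KO is the same 0.0202%, and 0 genes (0%) were called higher. They were Cbr2, a mitochondrial carbonyl reductase, Ctsh, a lysosomal cysteine protease, and Camk1g, a calcium/calmodulin-dependent protein kinase. No call was made on a gene of the actin, autophagy, Golgi or acrosome lists described below. At an unadjusted p under 0.05 there were 719 genes (4.84%), of which 448 (3.01%) were lower in KO and 271 (1.82%) higher. By its definition this threshold lets through a share of about 0.05 of genes that do not differ, so 719 is no excess. The number of genes at this level was 1755 without WT animal 1 and Het animal 1, 1288 without Het animal 1 and 443 without KO animal 2. The count of calls was 7, 5, 11 and 9 without WT animal 1, Het animal 2, KO animal 1 and KO animal 2. On the recovered reads, edgeR called 1 gene higher in KO and DESeq2 4. The direction also depended on the filter, since without it limma called 18 genes, 12 higher and 6 lower in KO.

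Cbr2 (ENSMUSG00000025150, chr11:120729489-120732114, minus strand) had a normalized count of 49.5, 27.0 and 19.3 in the WT animals. In the Het animals it had 28.3, 30.7 and 27.5. In the KO animals it had 0, 0 and 0. All 6 animals with an intact allele gave reads and no KO animal gave any. The pooled mean was 30.4 ± 10.1 (SD, n = 6), and the KO level was at least 10.5-fold lower, computed against 3 reads per library. The fitted log2 fold change was −4.92 (95% confidence interval −5.73 to −4.11, limma adjusted p = 0.00278), and it depends on the pseudocount because the KO animals are at 0. Het and WT animals differed by −0.04 (95% confidence interval −1.04 to 0.96) on the same log2 scale. The fit pools WT and Het, so a difference between them adds to its spread and makes a call less likely. A Het minus WT value near 0, here and for the other called genes, is thus in part set by how these genes were chosen. The call held in each of the 9 fits that left out 1 animal, with adjusted p between 0.00192 and 0.0211.

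Ctsh (ENSMUSG00000032359, chr9:90054152-90076089, plus strand) gave 99.0, 107 and 59.9 normalized counts in WT. The Het animals had 86.0, 98.7 and 58.2. The KO animals had 9.45, 11.6 and 9.83. The KO mean was 10.3 ± 1.15 (SD, n = 3), and the lowest of the 6 others was 58.2. Ctsh fell by 2.89 on the log2 scale (95% confidence interval −3.47 to −2.32, limma adjusted p = 0.00711), and the ratio of the group means was 8.23. Het minus WT was −0.12 (95% confidence interval −0.82 to 0.58). Ctsh was called in each of the 9 fits without 1 animal, with adjusted p from 0.00729 to 0.0449.

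Camk1g (ENSMUSG00000016179, chr1:193346346-193370298, minus strand) was the least abundant of the called genes. Its WT values were 22.3, 11.6 and 13.5 normalized counts, its Het values 18.9, 12.1 and 16.9, and its KO values 0, 0 and 0. Again the 2 groups did not overlap. The pooled mean of 15.9 ± 4.23 (SD, n = 6) rested on 93 reads in all, and the KO level was at least 5.48-fold lower, computed in the same way. The fitted log2 fold change was −4.04 (95% confidence interval −4.96 to −3.12, limma adjusted p = 0.0149), with Het minus WT at 0.05 (95% confidence interval −1.08 to 1.17). Camk1g was called in 3 of the 9 fits that left out 1 animal, those without WT animal 1, KO animal 1 or KO animal 2. In the other 6 its adjusted p ran from 0.0516 without Het animal 2 to 0.122 without WT animal 3, and without WT animal 1 and Het animal 1 together it was 0.0793.

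**Figure D1:**
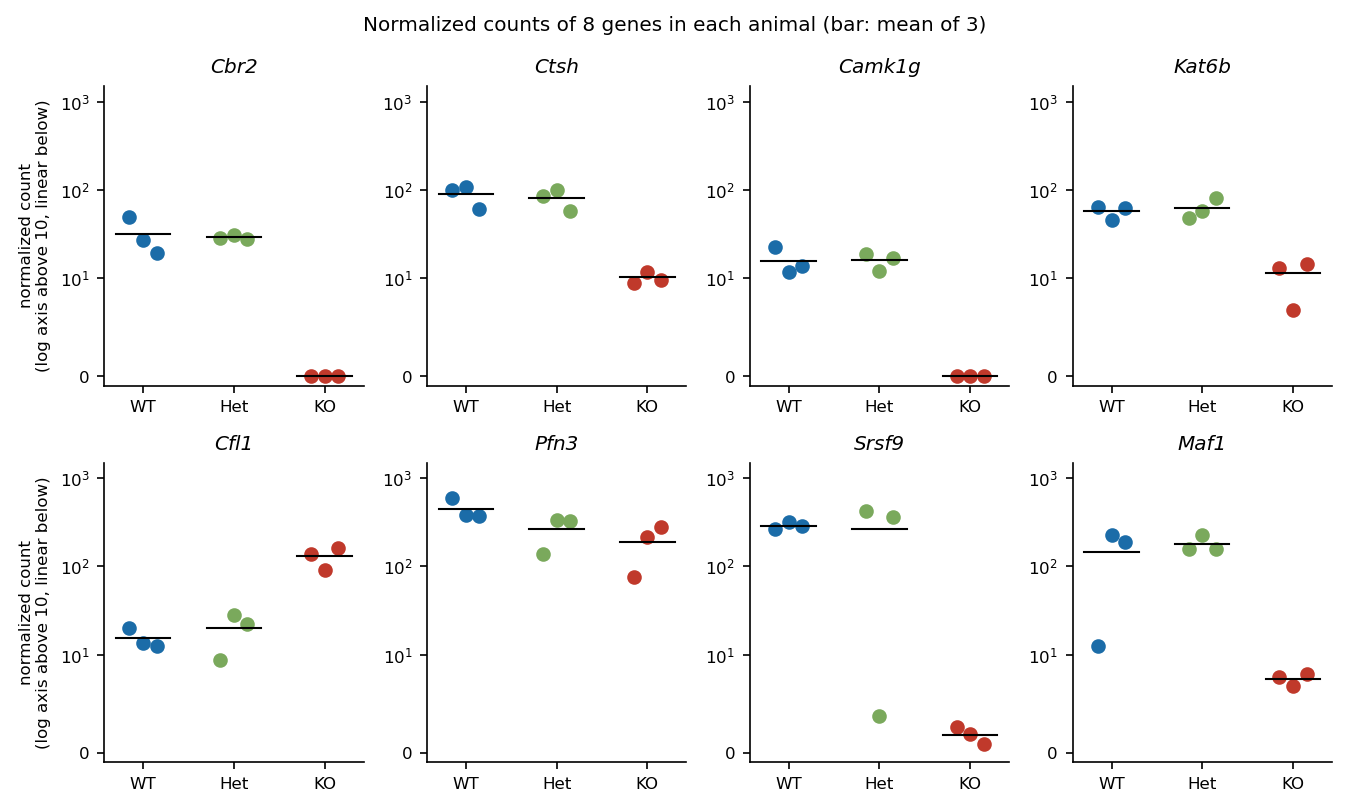
Normalized counts of 8 genes in each of the 9 animals, by genotype, on an axis that is linear below 10 and logarithmic above, with a bar at each mean of 3. Cbr2 and Camk1g are at 0 in the 3 KO animals and Ctsh lies between 9.45 and 11.6 there, whereas in Srsf9 and Maf1 1 animal of the pooled group (Het animal 2 with 3.72, WT animal 1 with 12.4) sits near the KO values.

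The starts of Cbr2 and Camk1g, which were both at 0 in the KO animals, are shown because these genes went from reads in all 6 other animals to none. The sequences are from RefSeq (GRCm38.p6), 300 bases each from the minus strand and written 5′ to 3′, at chr11:120731972-120732271 for Cbr2 and chr1:193370233-193370532 for Camk1g. Of the 3 called genes, 2 had an entry in the promoter table, and Ctsh had none. Capitals mark matches to any of 5 short motifs searched on both strands. These were the TATA box (TATAAA), a looser form of it (ATAAAA), the CCAAT box (CCAAT), the GC box (GGGCGG) and the half-site bound by CREB (TGACG). The looser form was added after these sequences had been seen.
Cbr2: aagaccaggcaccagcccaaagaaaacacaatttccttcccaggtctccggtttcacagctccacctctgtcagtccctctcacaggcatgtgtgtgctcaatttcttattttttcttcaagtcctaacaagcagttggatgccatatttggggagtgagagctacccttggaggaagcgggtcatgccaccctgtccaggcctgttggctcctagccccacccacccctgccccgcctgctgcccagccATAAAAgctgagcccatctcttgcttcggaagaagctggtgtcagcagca
Camk1g: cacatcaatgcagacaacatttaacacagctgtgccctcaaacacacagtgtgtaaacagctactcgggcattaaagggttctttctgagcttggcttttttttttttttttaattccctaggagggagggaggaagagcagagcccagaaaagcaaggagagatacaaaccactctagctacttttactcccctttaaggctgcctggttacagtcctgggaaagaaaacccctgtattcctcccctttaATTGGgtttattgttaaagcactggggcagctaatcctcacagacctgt
The capitals in Cbr2 are ATAAAA at the RefSeq start, letters found in 18.5% of the 32851 promoters of the table. The gene positions given earlier are from GENCODE, whose starts for both genes differ from the RefSeq starts used here. Those in Camk1g are ATTGG, the reverse strand of CCAAT, found in 37.4% of the promoters, 2 bases into the RefSeq transcript. The TATA box (13.6% of promoters), the GC box (35.7%) and the CREB half-site (20.8%) did not occur in these windows. The windows had 54.7% and 44.7% G and C, against a median of 52.7%. No motif was shared by the pair.

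The genes next to the called genes were also read, since a read can be assigned to a neighbour. Dcxr, which lies 2208 bases from Cbr2 on the same strand, had 5.29 to 14.0 normalized counts in the 6 WT and Het animals and 8.94 to 14.5 in the KO animals. Lamb3, 2468 bases from Camk1g on the opposite strand, had 19.3 to 43.3 against 18.4 to 28.6. Morf4l1, the gene nearest to Ctsh, had 1184 to 2157 against 1412 to 2202. The values of all 3 neighbours overlapped between the groups.

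The markers of somatic cells did not separate the groups in the way the called genes did. The 9 macrophage markers, of which 7 were tested, summed to 354 to 489 normalized counts in WT, 294 to 414 in Het and 350 to 561 in KO animals, with a median log2 fold change of 0.33 over the tested genes and none at 0 in all animals. The 8 Leydig cell markers, of which 7 were tested, summed to 2961 to 4753, 2173 to 3314 and 2722 to 3823, with a median of 0.03. The 13 Sertoli cell markers, of which 11 were tested and 2 were at 0 in all animals, summed to 5109 to 5662, 4296 to 5963 and 4458 to 7740, with a median of 0.13. In whole testis, fewer cells of a type and less RNA per cell cannot be told apart.

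The genes next in order of p, which were chosen after their values had been seen, also had KO animals outside the range of the 6 others. Kat6b, a histone acetyltransferase, had 64.4, 45.3 and 61.8 normalized counts in WT, 48.2, 56.8 and 80.4 in Het and 12.9, 6.77 and 14.3 in KO animals. The log2 fold change of Kat6b, −2.33 with a standard error of 0.28, had a limma adjusted p of 0.0533. Cfl1, which encodes the actin-severing protein cofilin 1, showed the opposite direction. It had 19.8, 13.5 and 12.6 in WT, 9.45, 27.9 and 22.2 in Het and 137, 90.0 and 160 normalized counts in KO animals. That of Cfl1, 2.85 with a standard error of 0.36, had a limma adjusted p of 0.0558, with Het minus WT at 0.26 (95% confidence interval −0.72 to 1.24).

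Neither Kat6b nor Cfl1 passed the adjusted threshold by limma, and both passed it by DESeq2 on the recovered reads (adjusted p = 2.04e-07 and 1.64e-09). Cfl1 was also called by edgeR's quasi-likelihood test (adjusted p = 0.0478), and when the animals were scaled by their counted reads (limma adjusted p = 0.0361). Cfl1 overlaps Snx32 on the opposite strand. Snx32 had 0 to 21.1 normalized counts in the 6 WT and Het animals and 5.15 to 17.4 in the KO animals, so the Cfl1 reads were not mirrored there. Cofilin 1 has closely similar copies in the genome, and the division of reads between them is uncertain.

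Prss50, a testis serine protease, followed with 26.5 to 125 normalized counts in the 6 animals and 5.15 to 8.71 in KO animals (log2 fold change −3.12, limma adjusted p = 0.119). Prss50 was called in 1 of the 9 limma fits that left out 1 animal, that without Het animal 1, the lowest of the 6 (adjusted p = 0.0270). Cmc2, a mitochondrial assembly factor of cytochrome c oxidase, had 96.6 to 246 against 28.1 to 38.4 (−2.22, limma adjusted p = 0.168). Lipe, the hormone-sensitive lipase, had 225 to 428 against 53.2 to 129 (−1.84, limma adjusted p = 0.200). Dcaf11, a substrate receptor of a cullin ubiquitin ligase, had 102 to 178 against 11.2 to 42.9 (−2.25, limma adjusted p = 0.326).

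Among those higher in KO were Phip, a chromatin-binding bromodomain protein (84.1 to 135 against 204 to 237, log2 fold change 1.09), Slc25a40, a mitochondrial carrier (13.8 to 26.0 against 46.4 to 50.9, 1.28), and Mtmr2, a phosphoinositide phosphatase (13.04 to 31.7 against 48.4 to 64.4, 1.39). Their limma adjusted p-values were 0.326, 0.662 and 0.662. Filip1, a filamin-interacting protein (31.7 to 43.3 against 11.6 to 20.3, −1.18), and Ilvbl (8.38 to 89.8 against 0.97 to 6.26, −3.60) were lower, with adjusted p-values of 0.621 and 0.690. For all of these genes the 3 KO animals lay on one side of the other 6.

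**Figure D2:**
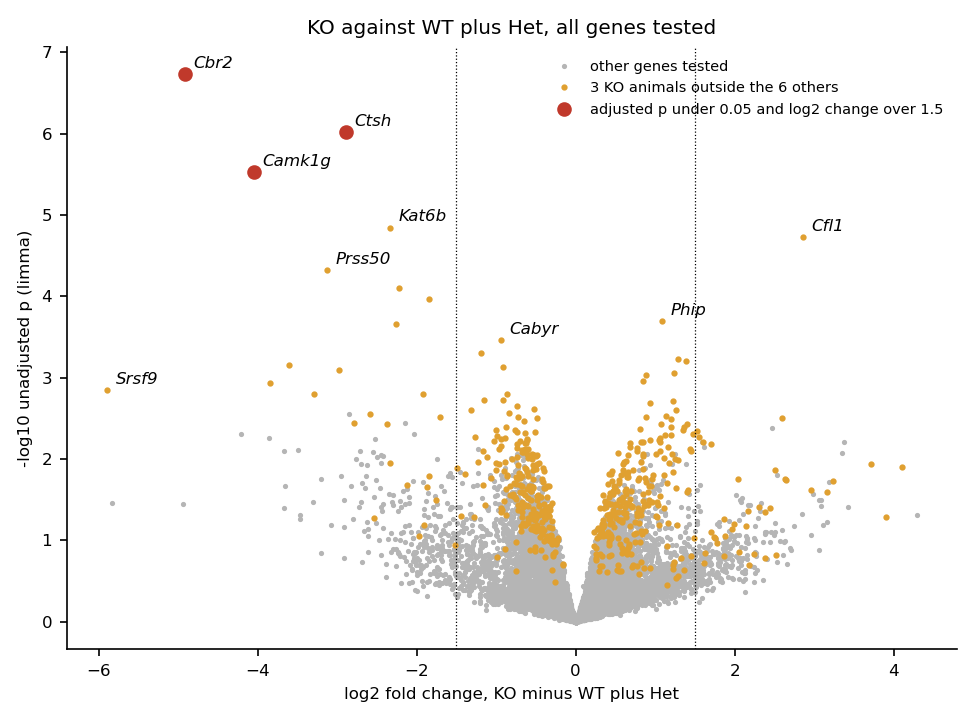
Each point is 1 of the 14865 genes tested, with the log2 fold change of KO minus WT plus Het on the x axis and −log10 of the unadjusted limma p on the y axis; orange points are genes whose 3 KO animals lay outside the 6 others. Cbr2 (−4.92), Ctsh (−2.89) and Camk1g (−4.04) are the called genes in red, and Kat6b and Cfl1 lie next below them.

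Over the whole transcriptome, the 3 KO animals lay outside the range of the 6 others in 523 genes, or 3.52% of those tested. They lay above in 279 genes (1.88%), with a median log2 fold change of 0.75, and below in 244 genes (1.64%), with a median of −0.62. A log2 fold change over 1.5 together with separate groups occurred in 37 genes above and 27 below. By contrast, 571 genes had a fold change of that size, 289 higher and 282 lower, so that in most of them the groups overlapped. In 431 of these 571 genes the 6 WT and Het animals spanned more than 8-fold among themselves. Over all genes the median log2 fold change was 0.03, and 53.1% had a higher level in KO animals.

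In some genes 1 animal of the pooled group lay near the KO animals while the other 5 lay far above them. Maf1, a repressor of RNA polymerase III, had 12.4, 228 and 190 normalized counts in WT, 157, 229 and 158 in Het and 7.73, 6.77 and 8.04 in KO animals. WT animal 1 sat just above the KO animals, and the limma adjusted p was 0.829 with all 9 animals and 0.000113 without WT animal 1. Cylc1, a protein of the sperm head skeleton, had 116, 1243 and 1439 in WT, 1062, 952 and 1084 in Het and 205, 151 and 219 in KO animals, with WT animal 1 below all KO animals. Prss46, a serine protease gene beside Prss50, behaved alike, with 4.95 in WT animal 1, 143 to 248 in the other 5 animals and 8.71 to 13.4 in KO animals. These genes were picked after their values had been seen.

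The DESeq2 Wald test called 36 genes (0.242%), 32 lower and 4 higher in KO, and included the 3 genes called by limma. In 19 of the 36 the KO animals lay outside the 6 others. In the other 17, at least 1 WT or Het animal had a value within or past that of the KO animals, and this animal was WT animal 1 or Het animal 1 in 11 of them. An example is Ldha, the lactate dehydrogenase of somatic and early germ cells. Its normalized counts were 31.0, 2333 and 1947 in WT, 14.2, 1992 and 15.9 in Het and 38.7, 19.4 and 24.1 in KO animals. The 6 animals with an intact allele thus fell into high and low values, and the low ones lay at the level of the KO animals. The edgeR test called 3 genes (0.0202%), Ctsh, Cbr2 and Cfl1.

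Without WT animal 1 and Het animal 1, limma called 12 genes, all lower in KO, of which Cbr2 and Ctsh were also called with all animals. The other 10 were Exosc1, Mrpl53, Tsg101, 4930535L15Rik, Prss46, Prss50, Cylc1, Mpdu1, Bap1 and Maf1. Bap1, a deubiquitinase of histone H2A, had 26.0 and 15.1 normalized counts in the 2 animals left out, 155 to 229 in the other WT and Het animals and 14.5 to 18.9 in KO animals. Mpdu1, which acts in the use of dolichol-linked mannose, was at 0 in the 2 animals left out and in all KO animals, and between 139 and 190 in the remaining 4. Which of the 2 sets of animals better represents WT and Het testis was not tested.

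The position of the Het animals was examined in 1 fit with 3 genotypes. There, Het against WT called 3 genes (0.0202%), KO against WT 3 (0.0202%) and KO against Het 4 (0.0269%). Het lay away from the midpoint of WT and KO in 3 genes (0.0202%). KO against WT and KO against Het share the KO animals and are given side by side only. Cbr2 had log2 differences of −4.94 to WT and −4.90 to Het (adjusted p = 0.0189 and 0.0201), and Ctsh of −2.95 and −2.83 (0.0446 and 0.0459), so both passed in each. Camk1g had −4.02 and −4.06 (0.0914 and 0.0840) and passed in neither. In fits of 6 animals, without Het or without WT, none of the 3 was called by limma. The adjusted p was 0.176 and 0.141 for Cbr2, 0.0993 and 0.0685 for Ctsh and 0.402 and 0.645 for Camk1g. For these 3 genes Het lay 2.43, 1.36 and 2.05 above the midpoint, on the side of WT, with limma adjusted p-values of 0.647, 0.978 and 0.978. The 3 genes had been called by the pooled comparison on the same animals. Their differences to WT, to Het and to the midpoint are thus in part set by that choice and are no separate evidence.

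The genes in which Het stood apart showed other patterns. In Qrich1 the Het animals were at the KO level, with 631, 655 and 507 normalized counts in WT, 57.6, 54.9 and 69.9 in Het and 85.0, 68.7 and 90.3 in KO animals. Qrich1 was called in Het against WT (log2 fold change −3.27, limma adjusted p = 0.00225), whereas in the pooled comparison its log2 fold change was −1.23 (adjusted p = 0.897). In Igf2bp1, an RNA-binding protein, the KO animals were at the WT level. It had 70.6, 67.5 and 52.1 in WT, 2.83, 2.79 and 5.29 in Het and 65.3, 33.9 and 59.9 in KO animals. The long non-coding RNA Gm17435 had 72.4 to 262 in WT, 0 to 1.86 in Het and 215 to 422 in KO animals. Med26, which overlaps Gm17435 on the opposite strand, had 103 to 488 in WT, 569 to 683 in Het and 202 to 293 in KO animals. Med26 was thus highest in the Het animals, where Gm17435 was lowest. How reads were divided between this pair was not tested.

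Unadjusted, 853 genes (5.74%) had p under 0.05 between Het and WT. Of the 719 genes at this level between KO and the pooled animals, 40 (5.56%) were also at this level between Het and WT. The first number comes from the fit with 3 genotypes and the second from the fit with 2 groups, in which a difference between Het and WT adds to the spread of a gene.

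**Figure D3:**
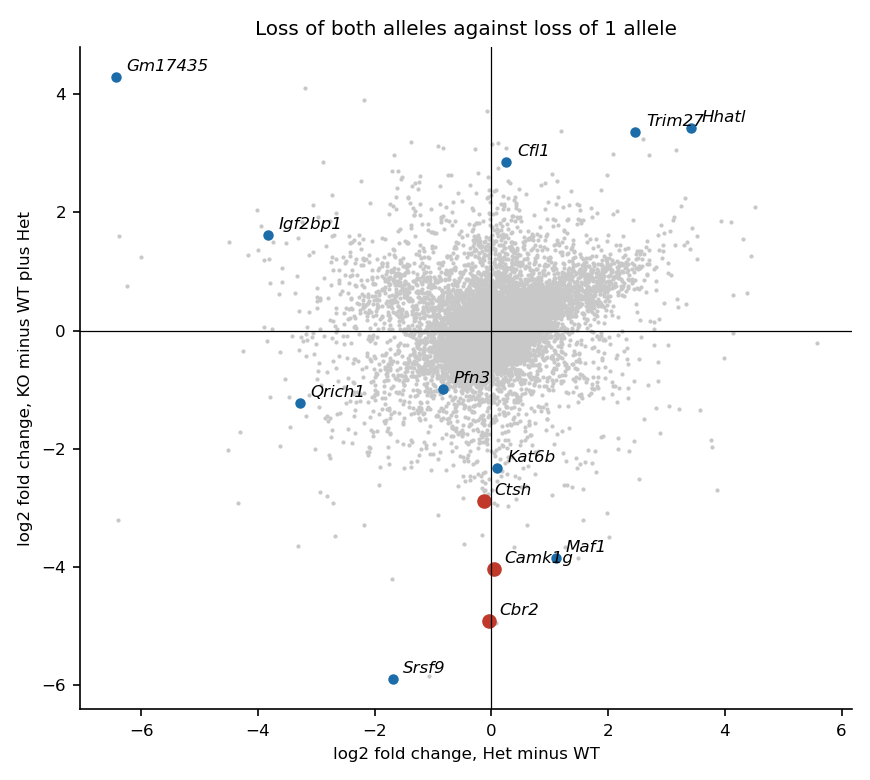
Each point is 1 gene tested, with the log2 fold change of Het minus WT on the x axis and of KO minus WT plus Het on the y axis. The called genes Cbr2, Ctsh and Camk1g (red) lie at −0.04, −0.12 and 0.05 on the x axis, whereas Qrich1 (−3.27), Igf2bp1 (−3.83) and Gm17435 (−6.44) lie far to the left. A position near 0 on the x axis is in part set by the choice of called genes, since their fit pools WT and Het.

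The study followed 13 genes by qRT-PCR, and it had picked them from KO against WT in these same animals, so their direction here is not independent evidence. None of the 13 was called by limma, against 0.0202% of all genes, while DESeq2 called Cfl1, Srsf9 and Exosc1 and edgeR called Cfl1. By limma 8 had an unadjusted p under 0.05 (4.84% of all genes), 5 higher (1.82%) and 3 lower (3.01%). In 3 of them (3.52% of all genes) the KO animals lay outside the 6 others, namely Cfl1 (above), Srsf9, an SR splicing factor (below), and B3gnt9, a glycosyltransferase gene (above). Srsf9 had 263, 318 and 285 normalized counts in WT, 425, 3.72 and 358 in Het and 2.58, 1.94 and 0.89 in KO animals. Het animal 2 sat just above the KO animals, and the log2 fold change was −5.89 (limma adjusted p = 0.897). Of the 9 fits that left out 1 animal, limma called Srsf9 only without Het animal 2 (adjusted p = 5.32e-05). That animal stands out by the value just given, so this fit is no separate evidence. B3gnt9 had 0 to 1.24 in WT, 0.94, 24.2 and 23.3 in Het and 25.8 to 38.7 in KO animals. The overlapping gene D230025D16Rik on the opposite strand was high where B3gnt9 was low, with 28.9 to 42.1 in WT, 31.2, 2.79 and 0 in Het and 0 to 6.77 in KO animals.

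In the other 10 genes the KO animals overlapped with the pooled group. Trim27, an E3 ubiquitin ligase, had 25.1 to 47.0 normalized counts in WT, 64.2, 1014 and 102 in Het and 764 to 878 in KO animals (log2 fold change 3.35, limma adjusted p = 0.897). Exosc1, a subunit of the RNA exosome, had 148 to 161 in WT, 5.67, 134 and 77.2 in Het and 13.4 to 17.2 in KO animals. With all animals it was not called by limma (−2.30, adjusted p = 0.897) and was called by DESeq2 (−2.89, adjusted p = 0.0377). Of the 9 limma fits that left out 1 animal, only that without Het animal 1, its lowest animal, called it (adjusted p = 0.0211). Copa, the alpha subunit of the COPI coat, had 214 to 448 in WT, 20.8, 401 and 27.5 in Het and 29.99 to 47.2 in KO animals. Dpm2, which acts in dolichol-phosphate mannose synthesis, had 158 to 234 in WT, 125, 10.2 and 8.47 in Het and 5.36 to 18.9 in KO animals. Atg2a, an autophagy gene, had 11.1, 133 and 260 in WT, 3.78, 156 and 9.52 in Het and 4.47 to 6.87 in KO animals.

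Slc25a36, a mitochondrial carrier, had 54.5 to 61.8 normalized counts in WT, 12.3, 58.7 and 5.29 in Het and 5.81 to 12.0 in KO animals. Mul1, a mitochondrial E3 ligase, had 6.19 to 6.76 in WT, 163, 5.59 and 29.6 in Het and 29.2 to 290 in KO animals. Hhatl had 0 in each WT animal, 0, 26.1 and 44.4 in Het and 32.6 to 35.8 in KO animals. Sap30, a subunit of the SIN3-HDAC complex, had 0, 6.75 and 13.5 in WT, 0, 18.6 and 20.1 in Het and 8.04 to 26.6 in KO animals (log2 fold change 1.29, limma adjusted p = 0.897). Without WT animal 1 and Het animal 1 the log2 fold change was −0.0034. The individual Het animals were thus at different levels for most of the 13 genes, and the high and low Het animals were not the same from gene to gene.

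Across the 22 gene lists limma called 0 genes, DESeq2 called 3 (Cfl1, Srsf9 and Exosc1) and edgeR Cfl1. Genes of the actin monomer pathway, to which profilins belong, were read from a list of 30, of which 28 were tested. Of these, 12 were higher and 16 lower in KO, 0 were called, and the median log2 fold change was −0.06, against 0.03 for all genes. The 3 at an unadjusted p under 0.05 (4.84% of all genes) were Cfl1 (2.85), Actl7a, an actin-related protein of the sperm head (−0.59), and Capza3, a capping protein subunit of sperm (−0.49). Actl7a had 674 to 1295 normalized counts in the 6 animals and 457 to 636 in KO animals. Capza3 had 1010 to 1700 and 657 to 1019.

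Of 35 core autophagy genes, all tested, 23 were higher and 12 lower, 0 were called, and the median was 0.09. The 3 at an unadjusted p under 0.05 (4.84% of all genes) were lower (3.01%). Uvrag, a partner of Beclin 1, had 38.2 to 56.7 normalized counts in the 6 animals and 8.59, 44.5 and 5.36 in KO animals (log2 fold change −1.74, limma adjusted p = 0.897). Of the 9 fits that left out 1 animal, limma called it only without KO animal 2 (adjusted p = 0.0289), whose value lay within the range of the 6. Optn, an autophagy receptor, had 148 to 240 against 128 to 143 (−0.53), and Nbr1, another receptor, 819 to 1373 against 604 to 904 (−0.45). The kinase pathway of AKT, mTOR and AMPK, which controls autophagy, had 20 of 21 genes tested, 11 higher and 9 lower, and a median of 0.09.

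Within that kinase list, Rictor, a subunit of mTORC2, was at 0.50 and Tsc2, an inhibitor of mTORC1, at −0.96 on the log2 scale. Tsc2 had 79.2 to 139 normalized counts in the 6 animals and 34.4, 97.7 and 34.0 in KO animals. Pkd1, which overlaps Tsc2 on the opposite strand, had 0 to 30.7 in the 6 animals and 49.0, 80.3 and 62.6 in KO animals. With the reads of overlapping genes summed, the difference at Tsc2 was 0.06, so it was no longer lower. COPI and COPII coat genes of the Golgi, 19 of 21 tested, included 7 higher and 12 lower, with a median of −0.06 and 0 at an unadjusted p under 0.05. Genes of mitochondrial dynamics, 19 of 21 tested, had a median of 0.06.

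Of 24 acrosome formation genes, 21 were tested, 7 higher and 14 lower, and the median was −0.15, or −0.02 without KO animal 2. Spaca7, an acrosomal protein, was at −0.50, with 393 to 574 normalized counts in the 6 animals and 246 to 409 in KO animals. Manchette and intraflagellar transport genes (23 of 26 tested) had 7 higher and 16 lower and a median of −0.12.

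After the qRT-PCR genes, the list with the lowest median was that of the sperm tail. All 21 of its genes were tested, 2 were higher and 19 lower in KO, and the median log2 fold change was −0.48, with 0 called by limma (0.0202% of all genes). At an unadjusted p under 0.05, 5 were lower (3.01% of all genes) and 1 higher (1.82%). Cabyr, a calcium-binding protein of the fibrous sheath, had 1008, 757 and 903 normalized counts in WT, 681, 840 and 691 in Het and 380, 390 and 496 in KO animals (−0.94, limma adjusted p = 0.471). Odf1, a main protein of the outer dense fibres, had 8067, 4700 and 5938 in WT, 4319, 5954 and 5444 in Het and 2882, 3118 and 4070 in KO animals (−0.76, adjusted p = 0.897). In both genes each KO animal was below each of the other 6, which held for 1.64% of all genes. Spata18 (−0.88), Tssk1 (−0.72) and Tssk2 (−0.62) were also lower, with overlap between the groups, and Fsip2, a protein of the fibrous sheath, was higher (0.56). The summed level of the list was 54900 to 64780 normalized counts in WT, 38580 to 58110 in Het and 30520 to 47620 in KO animals, with KO animal 2 lowest. Without KO animal 2 the median was −0.30.

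Markers of spermatids moved with the sperm tail genes. Of 14 round spermatid markers, 1 was higher and 13 lower, with a median log2 fold change of −0.37, and they summed to 15620 to 17530 normalized counts in WT, 11510 to 16380 in Het and 7558 to 13320 in KO animals. The 4 elongating spermatid markers were all lower, with a median of −0.42, and none was called. They summed to 233300 to 249400 in WT, 179100 to 214900 in Het and 123400 to 199700 in KO animals, so the Het animals lay below the WT animals as well. Prm2, a protamine that packs sperm DNA, had a log2 fold change of −0.67 and Tnp2, a transition protein, of −0.55. Their Het minus WT differences were −0.69 and −0.52. Without KO animal 2 the medians of the round and elongating spermatid markers were −0.16 and −0.23. Tssk1 and Tssk2 are members of both the sperm tail and the round spermatid lists. No marker was at 0 in all animals in any of the 2 spermatid lists, and the part of the spermatid markers in the sperm tail values was not tested.

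Spermatocyte markers, 15 of 15 tested, were 11 higher and 4 lower with a median of 0.38. Their sum was 13580 and 13970 in WT animal 1 and Het animal 1 and 43330 to 49200 in the 4 other WT and Het animals, compared with 46470 to 48950 in KO animals. Without WT animal 1 and Het animal 1 the median was 0.15. Sycp2, a protein of the synaptonemal complex, had 755 to 1548 normalized counts in the 6 animals and 1584 to 1840 in KO animals (0.64, limma adjusted p = 0.897). Spermatogonia markers (11 of 12 tested) had a median of −0.02. The erythrocyte markers, 4 of 6 tested, and the peritubular and endothelial markers, 7 of 8 tested, had medians of −0.14 and −0.10. Of 10 epididymis markers, 3 were tested, with a median of −0.36 (0.59 without KO animal 2), and 5 were at 0 in all animals.

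RNA-processing genes were read because Srsf9 and Exosc1 belong to them. The SR splicing factors (14 of 16 tested) had 9 higher and 5 lower and a median of 0.11. Tra2a had 296 to 494 normalized counts in the 6 animals and 549 to 725 in KO animals (log2 fold change 0.63), and Srsf10 had 343 to 395 against 431 to 521 (0.34). Both had a limma adjusted p of 0.897 and KO animals above the 6 others, which held for 1.88% of all genes. The RNA exosome (15 of 17 tested) had a median of −0.09, and the SIN3-HDAC complex (19 of 20 tested) of −0.04.

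**Figure D4:**
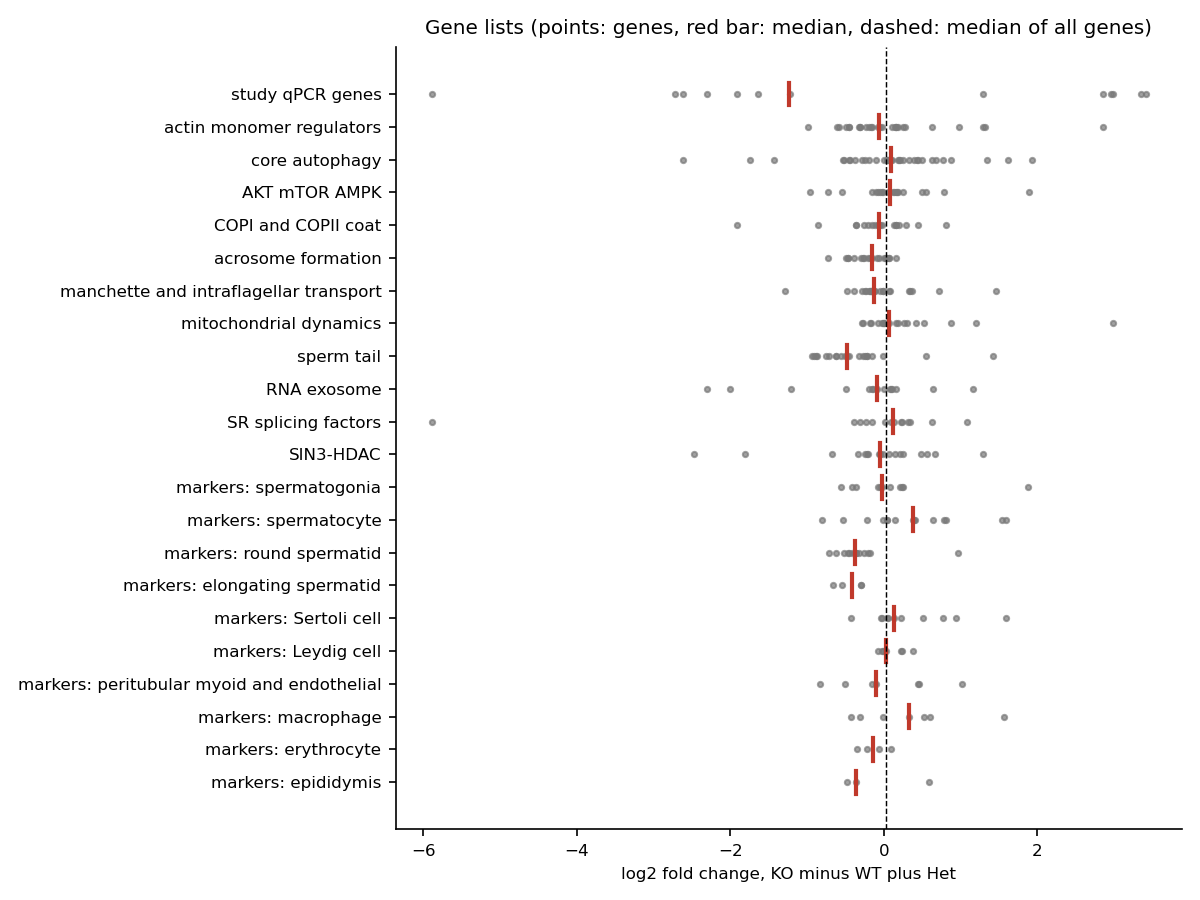
Log2 fold change of KO minus WT plus Het for each tested gene (grey points) of 22 lists, with the median of each list as a red bar and the median of all genes (0.03) as a dashed line. The sperm tail list (median −0.48) and the spermatid markers (−0.37 and −0.42) lie to the left of the line, and the qRT-PCR genes spread furthest, from −5.89 to 3.42.

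Transcripts were also read by their annotated class. Of 306 tested genes annotated as TEC, which are loci still to be tested as genes, 64.7% were higher in KO and the median log2 fold change was 0.22. At an unadjusted p under 0.05, 38 were higher (1.82% of all genes) and 3 lower (3.01% of all genes). The KO animals lay above the 6 others in 29 (1.88% of all genes) and below in 6 (1.64%). Among 12710 protein-coding genes 53.9% were higher, with 197 higher and 379 lower at an unadjusted p under 0.05. Among 1744 lncRNA genes 44.3% were higher, with 34 higher and 65 lower at that level, so both classes had more genes lower than higher there. Gm37254, a TEC locus, had 33.4, 33.8 and 32.8 normalized counts in WT, 35.9, 26.1 and 38.1 in Het and 55.8, 64.8 and 66.1 in KO animals (log2 fold change 0.89, limma adjusted p = 0.729). Gm43201 had 13.6 to 33.1 in the 6 animals and 46.5 to 57.1 in KO animals (1.22, limma adjusted p = 0.897). Both loci overlap a more abundant gene on the same strand, so their reads cannot be told apart from those of that gene. Gpatch2, which overlaps Gm37254, had 145.5 to 313 in the 6 animals and 168 to 290 in KO animals. Lcorl, which overlaps Gm43201, had 114 to 196 and 155.5 to 317. TEC loci were of low abundance, with a median of 17.9 normalized counts over the 9 animals.

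**Figure D5:**
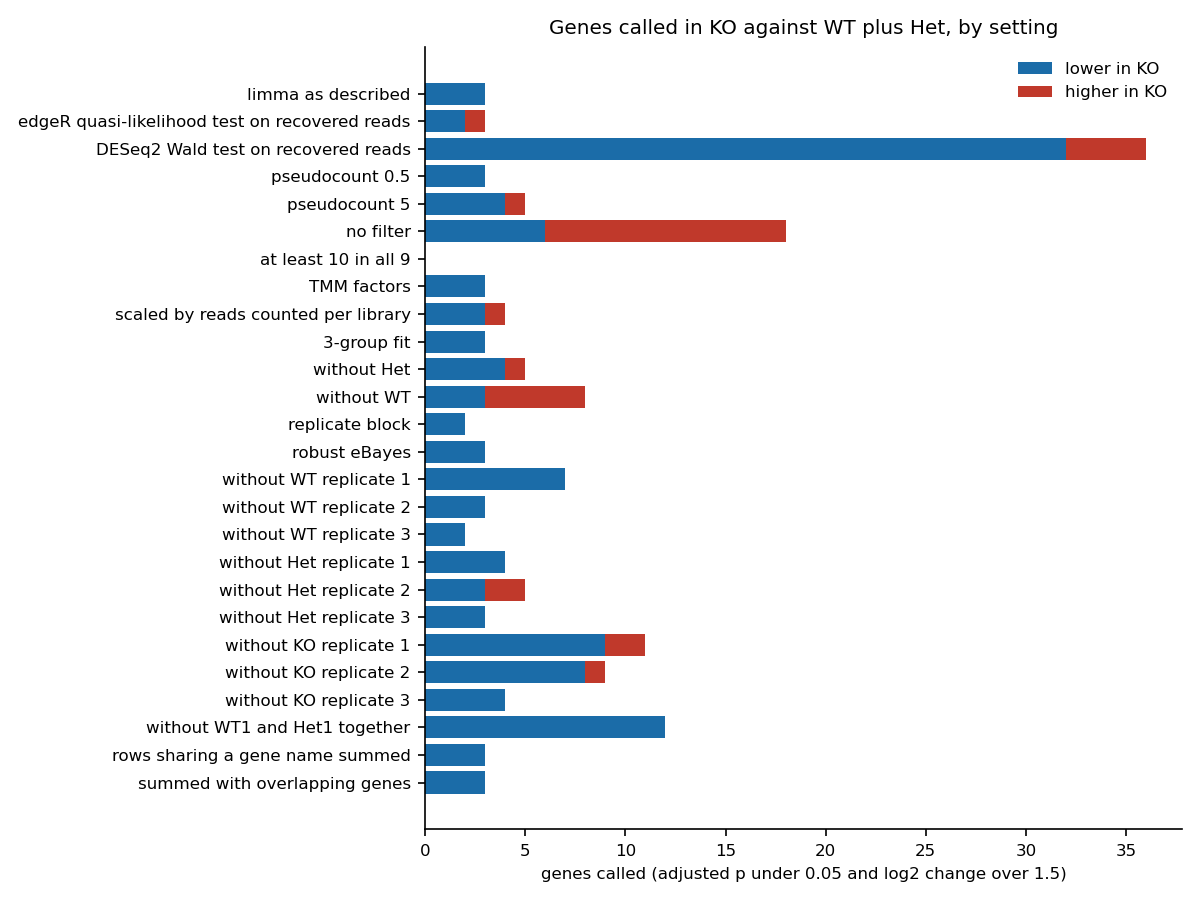
Number of genes called in KO against WT plus Het under each setting, stacked by direction. The count is 3 with limma and 36 with DESeq2, 0 when each of the 9 animals had to reach 10, and between 2 and 11 when 1 animal was left out.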

How the data were processed

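Testis RNA of 9 mice was sequenced from QuantSeq 3′ mRNA libraries. According to the submitters' processing notes and the study's methods, the authors trimmed reads with Trim Galore 0.4.5, aligned them to GRCm38 with HISAT2 2.1, counted genes with StringTie 1.3.3 and removed pseudogenes. The strand setting of the counting is not given in the sources used here. The authors deposited signal values, which are counts divided by 1 size factor per animal. In each animal 100% of nonzero values were whole multiples of 1 step (tolerance 0.01 read), so the reads were recovered. Of 38674 rows, 38509 matched the GENCODE M21 annotation of the same build.

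KO animals were compared with the 6 others using limma 3.58.1 in R 4.3.3, with log2(value + 1) as the scale and a trended eBayes prior, and p-values were adjusted over all 14865 genes (Benjamini-Hochberg). Called genes had an adjusted p under 0.05 and a log2 fold change over 1.5. Fold changes on this scale understate the change of genes with few reads. A fit with 3 genotypes gave the remaining contrasts. Alternatives were edgeR 4.0.16 and DESeq2 1.42.0 on the recovered reads, pseudocounts of 0.5 and 5, other filters, TMM factors, a replicate block and each animal left out. Leaving out WT animal 1 and Het animal 1 together, scaling by counted reads and summing overlapping genes were added after seeing the data. The scripts were tested on simulated data. Python 3.11.15 with matplotlib 3.10.9 drew the figures.

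Genes named were the called genes, Pfn3, the 13 qRT-PCR genes, up to 4 genes of each list by smallest p, and others stated as chosen after seeing values. One gene that this rule names is not reported here. The members and lists were chosen with earlier results of these data known. Raw reads, qRT-PCR values and a genome sequence were not used here.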

Additional observations from a re-analysis of the deposited data

Results flagged for a closer look

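Among the 6 WT and Het animals, 8 of 58 genes checked had 1 animal far from the other 5. The measure was Dixon's ratio of the gap to the range, on the log2(value + 1) scale. The 58 did not cover every gene named above, such as the neighbouring genes. None of the 22 list means had one. Chance flags about 1 in 20 groups. Het animal 2 was the lowest for Srsf9 (ratio 0.893) and the highest for Trim27 (0.626). Het animal 1 was the lowest for Exosc1 (0.772). WT animal 1 was the lowest for Maf1 (0.868), Cylc1 (0.835) and Prss46 (0.853), and the highest for Actl7a (0.662) and Capza3 (0.677). Maf1, Cylc1 and Prss46 had been picked for this pattern.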

How the results depend on the processing

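The pooled comparison called 3 genes. It called the same 3 with a pseudocount of 0.5, TMM factors, 3 genotypes in 1 fit, robust eBayes, summed rows and a lower or no fold cutoff. DESeq2 called 36, a pseudocount of 5 gave 5, and no filter on low values gave 18, 12 higher and 6 lower in KO. No Het or no WT animals gave 5 (1 higher) and 8 (5 higher), with 0 of the 3 genes in either. A filter of 10 in all 9 animals gave 0, since the 3 genes do not pass it. There edgeR and DESeq2 were not run, and limma put 570 genes at an unadjusted p under 0.05. Leaving out 1 animal gave 2 (without WT animal 3) to 11 (without KO animal 1), and leaving out WT animal 1 and Het animal 1 gave 12. The cause of these moves was not tested.

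Het against WT (3 genes) gave 32 with DESeq2, 1 with 10 in all 9 animals, 10 without WT animal 1 and Het animal 1, and 1 (without Het animal 3) to 31 (without Het animal 2) with 1 animal left out. Departure from the midpoint (3 genes) gave 16, 1 and 12, and 0 (without Het animal 1) to 33 (without Het animal 2). KO against WT (3 genes) gave 1 with a pseudocount of 5, 5 without a filter, 1 with 10 in all 9 animals, 18 without that pair and 1 to 9 with 1 animal left out. KO against Het (4 genes) gave 1 with a pseudocount of 5, 0 with 10 in all 9 animals, 12 without the pair, 2 with overlapping genes summed and 0 to 21. Leaving out Het animal 2 gave the highest count in 3 of these contrasts.

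Same-numbered animals correlated at −0.14 to 0.19 in their deviations from the group mean, and differently numbered animals at −0.24 to 0.19. Not every animal correlated best with its own number. Deviations from a mean of 3 animals cannot decide whether the numbers pair the samples, and the labels state no pairing. With the replicate number as a block, 2 genes were called in the pooled comparison (Ctsh and Cbr2), and 0 in Het against WT, in the departure from the midpoint and in KO against WT or Het.

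The Pfn3 difference ran from −1.37 without KO animal 3 to −0.43 without KO animal 1. The direction turned for Qrich1 without WT animals (0.41), Igf2bp1 without Het animals (−0.30), Sap30 without WT animal 1 and Het animal 1 (−0.0034) and Tsc2 with overlapping genes summed (0.056). Scaling by counted reads moved the median of all genes to 0.15, with 65.2% of genes higher in KO. The sperm tail median was then −0.35 and the round spermatid median −0.24. Depth limits genes near 10 normalized counts such as Camk1g.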
